A study of Mus musculus with 14 samples.

Results

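The histone genes of bone marrow-derived macrophages were examined, the cells that grow from mouse marrow precursors in culture. The genes were taken by symbol, as those that begin with Hist1h to Hist4h, H1f, H2ac, H2bc, H3c, H4c, H3f3 or H2af, and 73 of the 25239 symbols in the count table were found. Of these, 62 were classed by symbol as clustered replication-dependent genes. Another 6 are variant genes (H1f0, H1f10, H2afy3, H3f3a, H3f3b and H3f3c) and 5 are genes known from germ cells (H1f6, H1f7, H1f8, H2ac1 and H2bc1). The symbol pairs H2ac18 and H2ac19, H3c14 and H3c15, Hist1h2ao and Hist1h2ap, and Hist1h2bq and Hist1h2br each list both loci and nearly the same counts, so the 73 symbols give 69 separate measurements, and each pair is named here by its first symbol. The table uses current names for most H2A variants, which the symbol rule does not match. These (H2ax, H2az1, H2az2, H2aj, Macroh2a1 and Macroh2a2) and Cenpa are described apart.

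There were 14 libraries in 4 groups: 3 of Ezh2 KO macrophages in conditioned medium (KO CM), 3 of Ezh2 KO macrophages in control medium (KO control), 4 of WT macrophages in conditioned medium (WT CM) and 4 of WT macrophages in control medium (WT control). KO cells came from Ezh2fl/fl;LysM-Cre+/- mice, in which the lysozyme M promoter drives the Cre recombinase in myeloid cells and Cre removes floxed Ezh2, the methyltransferase of histone H3 lysine 27 in Polycomb repressive complex 2. WT cells came from littermates, whose floxed and Cre alleles, like the age of the mice, the labels do not give. All cultures had 7 to 10 days in medium with L929 cell supernatant, then 24 h in DMEM (control) or in medium that Hepa1-6 cells, from a mouse hepatoma, had conditioned (CM). Separate mice are not stated for the libraries of a group, and p-values therefore reflect spread among these libraries, which may be technical.

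Ezh2 had 27.8, 24.6 and 28.9 CPM (counts scaled to the library total) in KO CM and 18.7, 18.8 and 18.2 CPM in KO control, against 31.4, 37.8, 34.9 and 38.6 CPM in WT CM and 19.8, 21.5, 26.3 and 24.4 CPM in WT control. The KO over WT log2 fold change was -0.40 ± 0.10 (SE) in CM (adjusted p = 0.033) and -0.31 ± 0.10 in control medium (adjusted p = 0.076, edgeR's quasi-likelihood test with Benjamini-Hochberg adjustment over 13311 genes, used throughout). The call in CM was lost when any 1 of WT CM libraries 2, 3 and 4, KO control library 1 or any KO CM library was left out, with adjusted p between 0.051 and 0.12, with WT libraries 1 and 2 alone (adjusted p = 0.054) and with the replicate number as a block (adjusted p = 0.24). Which exons the floxed allele removes is not given in the sources used here, so a count over the whole gene is a weak check of the genotype. The 6 macrophage markers summed to 18587 to 19368 CPM in KO CM, 20848 to 21523 CPM in KO control, 28804 to 31817 CPM in WT CM and 29813 to 35221 CPM in WT control. Of these, Lyz2, the gene whose promoter drives Cre, averaged 9478 CPM in KO CM against 20458 CPM in WT CM and 10221 CPM in KO control against 21891 CPM in WT control. Of the other markers, Itgam, Adgre1 and Csf1r were not called between genotypes, with KO over WT log2 fold changes of 0.05, -0.14 and -0.09 in CM and -0.09, 0.12 and 0.03 in control medium. With CM, Itgam rose by 1.44 on the log2 scale in KO and 1.30 in WT, Adgre1 fell by 0.96 and 0.69, and Csf1r fell by 0.57 and 0.45. In such bulk libraries fewer cells of a kind and less RNA per cell cannot be told apart. Markers of hepatocytes (Alb and Serpina1a at 0), neutrophils, lymphocytes (Cd3g and Nkg7 at 0), fibroblasts (Lum at 0) and germ cells (Tnp1 at 0) each summed to at most 3.30 CPM in any library. Erythroid markers summed to 0.383 to 0.531 CPM in KO CM, 0.0679 to 0.218 CPM in KO control, 0.0251 to 0.268 CPM in WT CM and 0 to 0.0652 CPM in WT control, so that their level was higher in all 3 KO CM libraries than in any other, and their part in the results was not tested. Total exon counts were 80415111 to 85774436 for WT libraries 3 and 4 of both media and 40249866 to 61539097 for the other 10 libraries. Those same 4 libraries lay at 0.401 to 0.444 on the first principal component of exon shares, computed over 95132 exons of other genes, against -0.200 to -0.151 for the other 10. No label names a batch. There is no KO library of that kind, so in a comparison of KO with those 4 libraries genotype and library set cannot be told apart.

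Histones package DNA in nucleosomes, made of H2A, H2B, H3 and H4, with H1 bound to the linker. Replication-dependent genes lie in clusters, have no introns and are read mainly in S phase, when new chromatin is assembled; their mRNAs normally end in a stem-loop that the stem-loop binding protein SLBP holds, with no poly(A) tail. Variant histones such as H3.3 are made through the cell cycle from polyadenylated mRNAs and take the place of the canonical ones outside S phase. The libraries were made with the QIAseq Stranded mRNA Select kit, which selects poly(A) RNA, so the values below are for histone mRNA recovered by that selection and not for the whole histone mRNA of the cells.

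The stem-loop marks the mRNAs of replication-dependent histone genes. The histone stem-loop motif was searched on the sense strand of GENCODE transcripts (GRCm38), and it was present in 40 of 62 clustered genes, in 1 of 5 germ-cell genes and in 0 of 6 variant genes. Outside the members 8 of 21807 protein-coding gene names had it (0.0367%), H2ax among them. Of the 22 clustered genes without it, 14 have fewer than 30 nt annotated after the stop codon. The sequences below are from genes whose values follow, 5′ to 3′ as DNA with the stem-loop in capitals. They lie at chr3:96247322-96247347 (H3c14, plus strand), chr13:23739507-23739532 (H1f2, plus strand), chr3:96246027-96246052 (H2ac18, plus strand), chr13:23571838-23571863 (H2bc8, plus strand), chr13:23698084-23698109 (H4c3, minus strand) and chr13:21831793-21831818 (Hist1h4n, minus strand), each in the 3′ UTR.
H3c14: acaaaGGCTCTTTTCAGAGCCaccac
H1f2: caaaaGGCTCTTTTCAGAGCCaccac
H2ac18: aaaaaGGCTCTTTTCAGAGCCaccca
H2bc8: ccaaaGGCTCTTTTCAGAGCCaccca
H4c3: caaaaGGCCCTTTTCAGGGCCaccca
Hist1h4n: ctaaaGGCCCTTTTCAGGGCCatcca
The H1, H2A, H2B and H3 genes shown have the form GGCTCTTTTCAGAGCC, the most frequent one (24 genes), and the H4 genes have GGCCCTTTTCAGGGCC (6 genes). Of the 40 clustered genes with the stem-loop, 18 have a transcript model that runs on for 150 nt or more past it, and 7 of those hold AATAAA or ATTAAA in their last 50 nt. H1f2 and H3c14 are among the 7: their models run on for 840 and up to 1167 nt.

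The variant H3.3 had the highest level of the histone genes. H3f3a and H3f3b, which encode the same H3.3 protein, averaged 406 and 143 CPM per kb of exon over all libraries. Of the clustered genes, H2bc4 averaged 43.9, H1f2 25.2, H2bc8 18.3, H2ac18 16.7, H3c14 4.77 and H3c13 3.51 CPM per kb, and the linker variant H1f0 averaged 13.7 CPM per kb. H2bc4 lists overlapping exons of 469 and 423 bp with the same counts, so its reads entered the sum over exons more than once. Only 9 of the 58 separate clustered measurements averaged 1 CPM or more, against 5 of the 6 variant genes. The clustered genes together summed to 122 to 149 CPM in KO CM, 128 to 133 CPM in KO control, 125 to 140 CPM in WT CM and 113 to 131 CPM in WT control, and the 6 variant genes to 765 to 788, 746 to 808, 750 to 781 and 732 to 780 CPM in the same order of groups. These ranges overlapped between all 4 groups.

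The filter on low counts left 38 of the 69 measurements: 1 clustered H1, 8 H2A, 12 H2B, 4 H3 and 7 H4 genes, 1 germ-cell gene and 5 variant genes. The other 31 had totals of 0 to 111 counts over the 14 libraries and means of at most 0.133 CPM. Of them, H2ac1 had 0 counts, which allows up to 3 counts or 0.00369 CPM over all libraries, by counting error only.

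Conditioned medium raised the chromosome 3 genes H3c14 and H3c13, which encode H3.2, a canonical H3 of replicating chromatin, in both genotypes. H3c14, the sum of 2 loci on chromosome 3 (H3c14 itself at chr3:96246685-96247348 in RefSeq's GRCm38.p6, as all gene positions here, with 1 exon of 664 bp), had 9.18, 7.06 and 10.0 CPM in KO CM against 3.04, 3.65 and 3.87 CPM in KO control. In WT it had 7.82, 11.1, 9.06 and 9.25 CPM in CM against 3.11, 3.89, 3.92 and 3.63 CPM in control. Every CM library stood above every control library, and the genotypes overlapped within a medium. The CM over control fold was 2.49 in KO (log2 1.32 ± 0.16, 95% interval of the fold 2.01 to 3.09, adjusted p = 7.6e-06) and 2.55 in WT (log2 1.35 ± 0.14, 2.12 to 3.07, adjusted p = 9.4e-07).

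H3c13, which codes for the same H3.2 protein from chr3:96268654-96269155 (1 exon), had 2.87, 1.85 and 2.97 CPM in KO CM against 1.00, 1.17 and 1.09 CPM in KO control. In WT it had 1.88, 2.87, 2.63 and 2.78 CPM in CM against 0.760, 0.900, 0.911 and 1.02 CPM in control. Again no CM library overlapped a control library. The fold was 2.36 in KO (log2 1.24 ± 0.21, 1.76 to 3.15, adjusted p = 0.00026) and 2.81 in WT (log2 1.49 ± 0.18, 2.19 to 3.61, adjusted p = 9.1e-06). The interaction of genotype and medium was -0.26 ± 0.28 for H3c13 and -0.03 ± 0.21 for H3c14 (adjusted p = 0.89 and 0.99), so no difference of the CM response between genotypes was detected. The coding sequences of H3c13 and H3c14 differ at 1 of 408 nt and those of H3c14 and H3c15 are identical, and how reads that match several copies were counted is not given in the sources used here, so the share of each locus is uncertain. The other tested clustered H3 genes were near the floor. H3c2 had 0.203, 0.0213 and 0.0830 CPM in KO CM, 0.0728, 0.0877 and 0.249 CPM in KO control, 0.0251, 0.216, 0.158 and 0.0366 CPM in WT CM and 0.0434, 0, 0.0243 and 0.0833 CPM in WT control. H3c4 had 0.304, 0.0425 and 0.149 CPM in KO CM, 0.182, 0.140 and 0.294 CPM in KO control, 0.0251, 0.323, 0.289 and 0.158 CPM in WT CM and 0.130, 0.0196, 0.109 and 0.131 CPM in WT control. In both genes the media overlapped in both genotypes. Their log2 fold changes with CM were -0.42 ± 0.90 and -0.33 ± 0.73 in KO and 1.36 ± 0.85 and 1.01 ± 0.63 in WT, with a lowest adjusted p of 0.23.

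**Figure D1:**
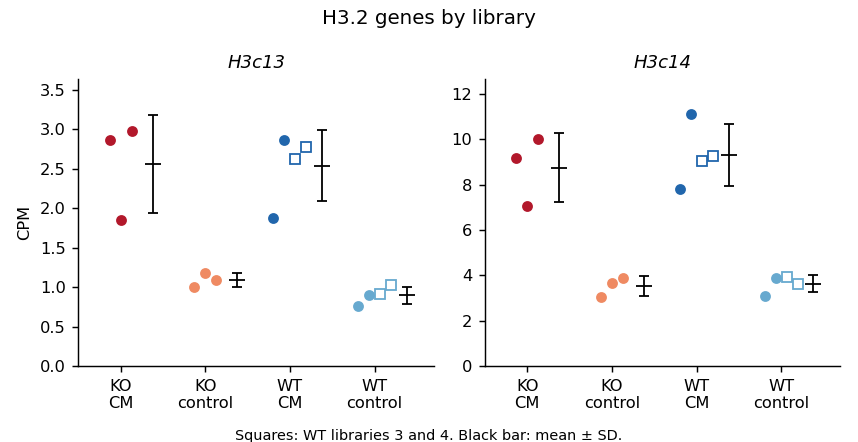
H3c13 and H3c14 in CPM (y axis) in each library of the 4 groups, with the mean and SD as black bars and WT libraries 3 and 4 as squares. All CM libraries lie above all control libraries of the same gene, at 1.85 to 2.97 in CM against 0.760 to 1.17 CPM in control for H3c13 and at 7.06 to 11.1 in CM against 3.04 to 3.92 CPM in control for H3c14.

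The promoters of these co-moving genes are shown because they are unlike each other, although the coding sequences are nearly the same. Each run is 300 bases of RefSeq's GRCm38.p6, from 250 before to 50 after the annotated start, on the gene's strand (plus for both), at chr3:96268404-96268703 for H3c13 and chr3:96246435-96246734 for H3c14. Capitals mark CCAAT, the box that the factor NF-Y binds.
H3c13: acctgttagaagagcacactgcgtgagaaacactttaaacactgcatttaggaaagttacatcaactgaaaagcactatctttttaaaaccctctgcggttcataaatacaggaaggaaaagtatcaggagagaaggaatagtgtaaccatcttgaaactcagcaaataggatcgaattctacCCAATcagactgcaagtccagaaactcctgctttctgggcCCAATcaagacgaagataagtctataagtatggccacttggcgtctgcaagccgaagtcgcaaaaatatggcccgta
H3c14: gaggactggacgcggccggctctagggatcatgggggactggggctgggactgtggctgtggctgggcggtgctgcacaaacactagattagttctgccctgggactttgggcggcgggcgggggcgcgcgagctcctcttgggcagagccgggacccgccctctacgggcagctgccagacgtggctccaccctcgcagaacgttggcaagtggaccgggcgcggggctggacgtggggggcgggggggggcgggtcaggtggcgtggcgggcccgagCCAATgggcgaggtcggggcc
The longest run the promoters share is 7 nt, whereas those of H3c14 and H3c15 share a run of 231 nt. CCAAT was present 2 times in the promoter of H3c13 and 1 time in that of H3c14, and TATAAA in neither. On either strand, with any overlap between motifs kept, CCAAT was found in the promoters of all 5 H1, 13 H2A, 11 H2B and 10 H3 clustered genes with an entry and of 3 of 9 H4 genes, against 37.9% of 27025 promoters of all genes. TATAAA was found in 4 of 5 H1, 9 of 13 H2A, 5 of 11 H2B, 4 of 10 H3 and 6 of 9 H4 promoters, against 14.2% of all. The octamer ATGCAAAT, a motif known from H2B promoters, was found in 5 of 11 H2B and 5 of 13 H2A promoters and in none of the H1, H3 and H4 promoters, against 1.75% of all. A match of letters says nothing of binding.

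The other 5 called members fell with CM in KO macrophages, and they are H1 and H4 genes. H1f0, the linker variant H1.0 known from differentiated and resting cells (chr15:79028212-79030504, 1 exon), had 25.9, 28.4 and 30.4 CPM in KO CM against 37.0, 37.8 and 43.5 CPM in KO control. The groups did not overlap, and the log2 fold change was -0.48 ± 0.11 (adjusted p = 0.0020). In WT it had 25.4, 30.7, 25.4 and 29.7 CPM in CM against 27.0, 31.1, 33.4 and 34.6 CPM in control, which overlapped (-0.18 ± 0.09, adjusted p = 0.13). With the replicate number as a block, a pairing that the labels do not give, that difference was called (-0.19, adjusted p = 0.025). It was also called by limma-voom (-0.26, adjusted p = 0.023) and by edgeR with WT libraries 3 and 4 alone (-0.30, adjusted p = 0.023), among other settings. By DESeq2 and with WT libraries 1 and 2 alone it was not called.

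H1f2, the clustered gene of linker histone H1.2 (chr13:23738807-23739531, 1 exon), had 16.8, 15.7 and 20.5 CPM in KO CM against 21.5, 21.9 and 24.1 CPM in KO control (-0.35 ± 0.12, adjusted p = 0.028). It had 13.2, 17.6, 14.1 and 16.5 CPM in WT CM against 17.1, 17.8, 18.5 and 20.2 CPM in WT control (-0.26 ± 0.10, adjusted p = 0.055). KO CM and KO control libraries did not overlap, and in WT only CM library 2 came above a control library. The call in KO was lost without KO control library 2 or 3 or KO CM library 1 or 2 (adjusted p 0.051 to 0.13). The WT difference was called with the replicate block (-0.27, adjusted p = 0.0066). It was also called by DESeq2 (-0.27, adjusted p = 0.034) and limma-voom (-0.32, adjusted p = 0.012), among other settings. With WT libraries 1 and 2 alone it was not called.

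H4c3 (chr13:23698084-23698458, 1 exon) was near the floor of detection, with 0.0507, 0.0213 and 0.0498 CPM in KO CM (6 counts in all) against 0.273, 0.210 and 0.226 CPM in KO control (37 counts). Its log2 fold change was -2.47 ± 0.66 (adjusted p = 0.0076). Hist1h4m had 0.0761, 0.170 and 0.199 CPM in KO CM against 0.527, 0.386 and 0.385 CPM in KO control (23 against 68 counts, -1.49 ± 0.40, adjusted p = 0.0079). Hist1h4n had 0.127, 0.255 and 0.232 CPM in KO CM against 0.746, 0.491 and 0.724 CPM in KO control (31 against 101 counts, -1.63 ± 0.44, adjusted p = 0.0079). None of the 3 genes overlapped between media in KO. Hist1h4m and Hist1h4n have identical coding sequences, so their reads cannot be told apart there and their falls may be 1 measurement.

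In WT macrophages the media overlapped for each of the same H4 genes. H4c3 had 0.0501, 0.0431, 0.144 and 0.158 CPM in WT CM against 0.195, 0.157, 0.134 and 0.369 CPM in WT control. Hist1h4m had 0.201, 0.151, 0.158 and 0.171 CPM in WT CM against 0.326, 0.313, 0.207 and 0.167 CPM in WT control. Hist1h4n had 0.226, 0.237, 0.263 and 0.146 CPM in WT CM against 0.543, 0.646, 0.243 and 0.262 CPM in WT control. For Hist1h4n the 2 highest control values were those of WT libraries 1 and 2, and every CM value but 1 lay between 0.226 and 0.263 CPM. In the order H4c3, Hist1h4m and Hist1h4n, the log2 fold changes were -0.99 ± 0.46, -0.54 ± 0.34 and -0.92 ± 0.38 with adjusted p of 0.11, 0.25 and 0.070. With WT libraries 1 and 2 alone Hist1h4n was called (-1.36, adjusted p = 0.046). The interaction had adjusted p of 0.71, 0.71 and 0.83 for these genes and 0.64 and 0.95 for H1f0 and H1f2, so a larger fall in KO than in WT was not shown. The other tested H4 genes, H4c2, H4c8, H4c9 and H4c12, were not called. H4c9, the most abundant tested H4 gene, had 1.09, 0.957 and 0.581 CPM in KO CM against 0.928, 1.12 and 0.951 CPM in KO control, and 0.827, 0.949, 0.460 and 0.414 CPM in WT CM against 1.04, 1.15, 0.498 and 0.595 CPM in WT control. H4c8 had 0.558, 0.0638 and 0.149 CPM in KO CM against 0.273, 0.281 and 0.181 CPM in KO control, and 0.326, 0.108, 0.144 and 0.207 CPM in WT CM against 0.174, 0.196, 0.0850 and 0.119 CPM in WT control. The media overlapped for both.

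**Figure D2:**
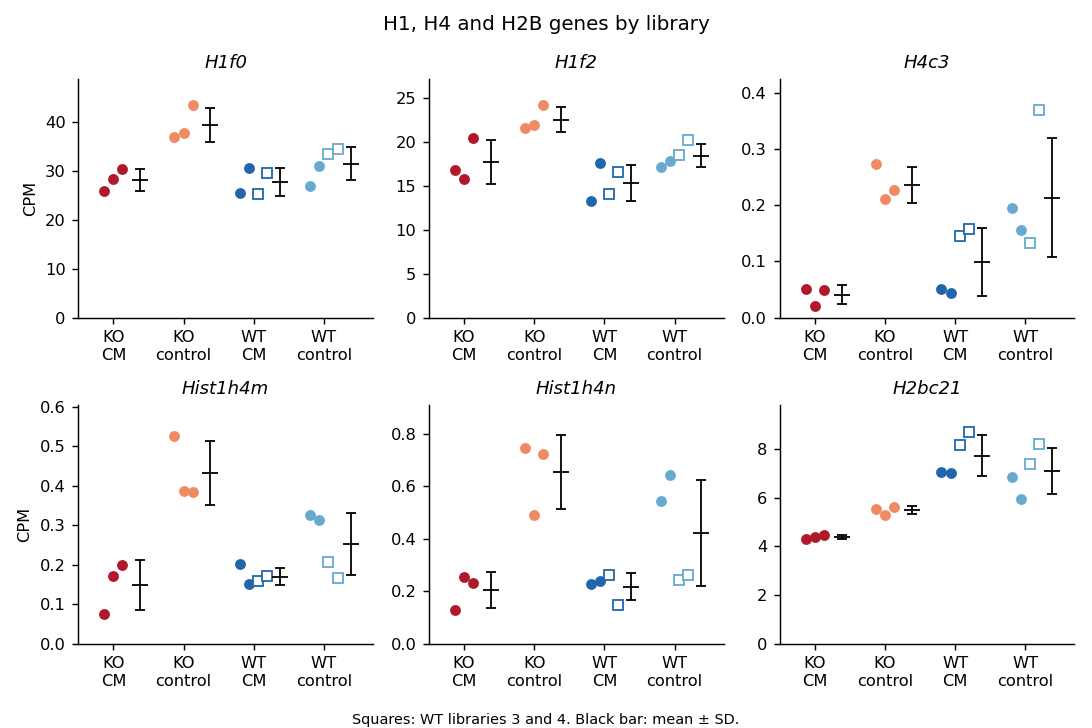
CPM (y axis) of H1f0, H1f2, H4c3, Hist1h4m, Hist1h4n and H2bc21 in each library of the 4 groups, with mean and SD as black bars and WT libraries 3 and 4 as squares. The first 5 genes are lower in all KO CM than in all KO control libraries, and H2bc21 is lower in all KO than in all WT libraries of the same medium.

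Over all members, CM raised 2 and lowered 5 of 38 tested histone genes in KO, where 20.0% of all tested genes were called higher and 18.2% lower (38.1% in all). In WT it raised 2 and lowered 0, against 19.3% called higher and 18.0% lower of all tested genes (37.3% in all), with 5 members at an unadjusted p below 0.05. With the replicate block the WT counts were 4 higher (H1f10 and H2bc4 added) and 2 lower (H1f0 and H1f2), against 3450 and 3349 of 13091 genes. DESeq2 called 2 higher and 1 lower in WT, against 2690 and 2625 of 13311 genes. By limma-voom 2 were higher and 2 lower, against 2872 and 2681 of 13311 genes. The share of members called was 18.4% in KO and 5.26% in WT, and 14 of the 38 averaged 1 CPM or more. The median log2 fold change of the tested members was -0.28 in KO and 0.04 in WT, beside -0.01 for all genes in each. By class, clustered H3 genes had medians of 0.45 in KO and 1.35 in WT, H4 genes -0.55 and -0.54, H2A genes -0.40 and -0.00, and H2B genes -0.22 and 0.08. None of the 8 H2A and 12 H2B genes was called with CM in either genotype in the main edgeR fit. In other edgeR fits H2bc21 was called lower with CM in KO.

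**Figure D3:**
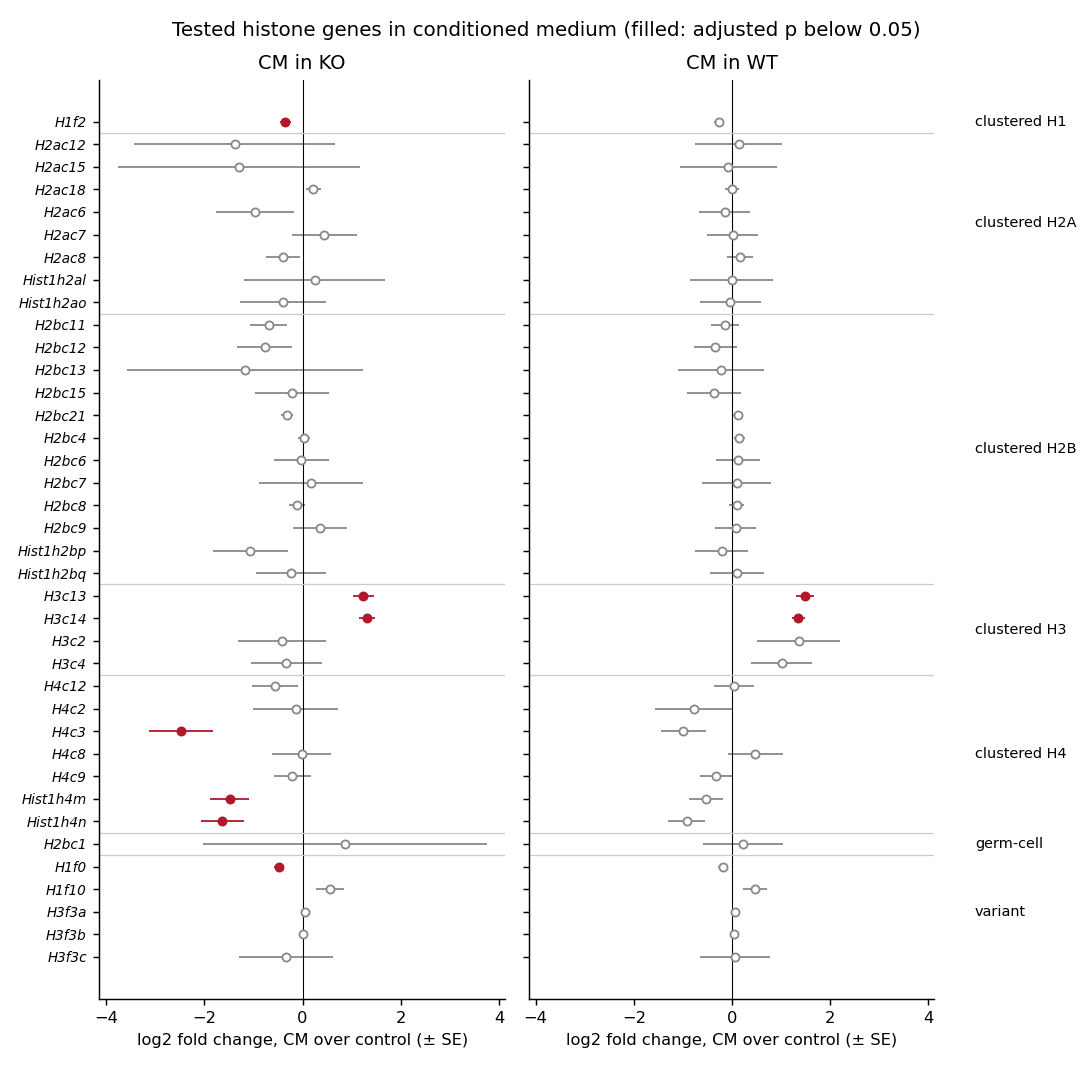
Log2 fold changes of CM over control with their SE (x axis) for the 38 tested histone genes (rows, by class), in KO at left and in WT at right. Filled points have an adjusted p below 0.05: H3c13 and H3c14 in both genotypes, and H1f0, H1f2, H4c3, Hist1h4m and Hist1h4n in KO.

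The abundant H2A, H2B and H3.3 genes were not called with CM in the main edgeR fit. With WT libraries 3 and 4 alone, H2ac18 was called higher with CM in KO and H3f3a higher with CM in WT. H2bc4, the most abundant clustered gene, had 48.1, 58.0 and 68.3 CPM in KO CM against 58.7, 56.7 and 55.5 CPM in KO control, and 54.1, 57.0, 50.4 and 44.1 CPM in WT CM against 49.9, 52.7, 41.2 and 41.8 CPM in WT control. H2ac18 had 22.0, 17.4 and 19.9 CPM in KO CM against 17.9, 16.8 and 16.2 CPM in KO control, and 20.9, 22.1, 16.2 and 15.7 CPM in WT CM against 18.2, 24.1, 16.5 and 15.9 CPM in WT control. For both genes the media overlapped in both genotypes. H2ac18 is listed with 2 loci of 556 bp whose counts were nearly equal in each library (437 and 432 in KO CM library 1), so the same reads may stand at both.

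The H3.3 gene H3f3a had 442, 437 and 447 CPM in KO CM against 414, 418 and 448 CPM in KO control, and 452, 465, 460 and 442 CPM in WT CM against 456, 471, 409 and 411 CPM in WT control. Its CM over control log2 fold change was 0.05 (95% interval -0.07 to 0.17) in KO and 0.06 (-0.05 to 0.16) in WT. H3f3b had 316, 296 and 292 CPM in KO CM against 301, 286 and 312 CPM in KO control, and 269, 281, 271 and 287 CPM in WT CM against 264, 275, 269 and 271 CPM in WT control. Its log2 fold change was 0.01 (-0.10 to 0.11) in KO and 0.04 (-0.05 to 0.13) in WT. H1f10, the linker variant H1X, had 1.62, 1.64 and 2.18 CPM in KO CM against 1.15, 1.40 and 1.13 CPM in KO control, and 1.13, 1.49, 1.97 and 2.33 CPM in WT CM against 0.782, 1.08, 1.57 and 1.55 CPM in WT control. Its log2 fold change was 0.57 ± 0.29 in KO and 0.47 ± 0.24 in WT (adjusted p = 0.14 and 0.15), and with the replicate block the WT difference was called (adjusted p = 0.024).

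Between genotypes, edgeR called 1 histone gene. H2bc21 is an H2B gene with 1 exon of 2667 bp (chr3:96221072-96223738), classed here by symbol with the clustered genes. Its 2620-nt transcript model has no stem-loop and holds AATAAA or ATTAAA in its last 50 nt. It had 4.29, 4.40 and 4.47 CPM in KO CM against 7.04, 7.03, 8.16 and 8.70 CPM in WT CM. The groups did not overlap, and the KO over WT log2 fold change was -0.82 ± 0.12 (fold 0.566, 95% interval 0.483 to 0.663, adjusted p = 0.0014). In control medium it had 5.53, 5.30 and 5.61 CPM in KO against 6.86, 5.95, 7.40 and 8.19 CPM in WT, which did not overlap either (-0.38 ± 0.11, adjusted p = 0.066). The KO libraries did not overlap between media, and the fall with CM in KO was not called in the main edgeR fit. It was called by edgeR with the most-counted exon (-0.32, adjusted p = 0.010) and with only the compared groups (-0.32, adjusted p = 0.047), among other settings. With WT libraries 1 and 2 alone the difference was -0.67 ± 0.13 in CM (adjusted p = 0.0084) and -0.22 ± 0.12 in control medium (adjusted p = 0.37). H2bc21 was the member with the smallest interaction p (unadjusted p = 0.015, adjusted p = 0.48).

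H2bc21 was the 1 called member of 38 in CM, where 3.10% of all tested genes were called higher and 1.49% lower (4.59% in all), and 10 members had an unadjusted p below 0.05. In control medium edgeR called 0 members, against 2.82% of all tested genes called higher and 2.50% lower (5.32% in all), with 11 at an unadjusted p below 0.05. There DESeq2 called 2 members higher and 1 lower, against 708 and 793 of 13311 genes. By limma-voom 6 were higher and 5 lower, against 2436 and 2321 of the same genes. H1f0 had 37.0, 37.8 and 43.5 CPM in KO control against 27.0, 31.1, 33.4 and 34.6 CPM in WT control, without overlap (0.32 ± 0.10, adjusted p = 0.068), and was called with WT libraries 1 and 2 alone (0.44 ± 0.10, adjusted p = 0.023). H3f3b was higher in all KO control than in all WT control libraries too (0.15 ± 0.05, adjusted p = 0.079). H2ac8, a clustered H2A gene, had 0.330, 0.447 and 0.266 CPM in KO CM against 0.552, 0.560, 0.893 and 0.634 CPM in WT CM, and 0.364, 0.403 and 0.611 CPM in KO control against 0.586, 0.509, 0.790 and 0.488 CPM in WT control. H2bc11, a clustered H2B gene, had 0.228, 0.213 and 0.299 CPM in KO CM against 0.451, 0.280, 0.538 and 0.743 CPM in WT CM, and 0.509, 0.298 and 0.408 CPM in KO control against 0.565, 0.509, 0.498 and 0.702 CPM in WT control. H2ac8 was without overlap in CM (-0.95 ± 0.31, adjusted p = 0.098), and H2bc11 overlapped in both media. The median log2 fold change of the tested members was -0.51 in CM and -0.09 in control medium, beside 0.00 for all genes in each. The interaction was called for 0 members and 0 of 13311 genes by edgeR (0% called), with 1 member and 1050 genes at an unadjusted p below 0.05; DESeq2 called 60 genes higher and 24 lower and limma-voom 19 higher and 8 lower, and neither called a member.

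The genotype comparisons depended on which WT libraries were used. Against WT libraries 3 and 4 alone, 6 members were called higher and 13 lower in KO control of 41 tested (19.5% and 19.5% of all genes), and 3 higher and 18 lower in KO CM (17.8% and 17.7%). Those called lower in both media include H2ac12, H2ac15, H2bc13 and H2bc1, which passed the low-count filter only through WT libraries 3 and 4. Against WT libraries 1 and 2 alone, 1 was called higher and 0 lower in KO control of 33 tested (2.20% and 1.65% of all genes), and 0 higher and 1 lower in KO CM (2.62% and 0.967%).

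The histone genes that set WT libraries 3 and 4 apart were mostly low H2A and H2B genes. In 14 of the 38 tested members all 4 of these libraries stood above all other 10, against 7.48% of all tested genes. In 0 members all 4 stood below, against 6.59%. Of the 14, H2ac12, H2ac15, H2ac6, H2bc13 and H2bc1 had at most 0.164 CPM in the other 10 libraries and passed the low-count filter only through these 4. Hist1h2ao, with at most 0.327 CPM in the other 10, would not have passed without these 4 either. Being tested thus partly hung on being high there, so the count of 14 is not a result about histone genes. H2ac12 (chr13:22035122-22035643) had 0, 0.0851 and 0.0498 CPM in KO CM, 0.164, 0.140 and 0.0679 CPM in KO control, 0.150, 0.0216, 2.04 and 1.88 CPM in WT CM and 0.0652, 0.0783, 1.69 and 1.89 CPM in WT control. H2bc13 (chr13:21715711-21716183) had 0, 0.0425 and 0.0332 CPM in KO CM, 0.0546, 0.0877 and 0.0453 CPM in KO control, 0.0752, 0.0216, 1.25 and 1.55 CPM in WT CM and 0.0869, 0.0587, 1.66 and 1.64 CPM in WT control. In each WT group libraries 3 and 4 were the high ones, and libraries 1 and 2 lay within or near the KO range. H2ac15 had 0.0761, 0.0213 and 0.0166 CPM in KO CM, 0.0909, 0.158 and 0 CPM in KO control, 0.0501, 0.0216, 1.52 and 1.45 CPM in WT CM and 0, 0.0196, 1.62 and 1.61 CPM in WT control. Hist1h2al had 0.254, 0.213 and 0.0664 CPM in KO CM, 0.182, 0.0701 and 0.181 CPM in KO control, 0.0251, 0.259, 1.31 and 1.21 CPM in WT CM and 0.0652, 0.0196, 1.38 and 1.36 CPM in WT control. Both had the same split of the WT libraries. H2bc1, known from testis, had 0.304 to 0.451 CPM in the 4 WT libraries numbered 3 and 4, against at most 0.0434 CPM in the other 10. H2bc6 had 7.96 to 8.84 CPM in the same 4 libraries, against 1.41 to 3.91 CPM in the other 10. H3f3c, an H3.3 gene with 1 exon (chr2:119665116-119666152), had 3.09, 2.79 and 1.61 CPM in KO CM, 4.18, 2.54 and 2.56 CPM in KO control, 3.26, 2.85, 18.5 and 19.6 CPM in WT CM and 1.46, 2.03, 18.6 and 20.4 CPM in WT control, whereas H3f3a and H3f3b overlapped between the library sets.

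Of the 12 clustered genes among the 14, 5 are H2A and 7 are H2B genes, and none of the 12 tested H1, H3 and H4 genes is among them. Of these 12, 5 have the stem-loop in their GENCODE transcripts, against 17 of the other 20 tested clustered genes. The models of H2ac15, H2bc13 and H2bc15 are 393, 381 and 381 nt long, with coding sequences of 390, 378 and 378 nt. They hold no 3′ UTR in which the motif could be found, so this contrast depends on the annotation and does not show genes without a stem-loop. The ratio of the mean of WT libraries 3 and 4 to that of WT libraries 1 and 2 ran from 1.21 (H2bc21) to 67.9 (H2ac15) with a median of 4.33 in the 12, and had a median of 1.03 in the other 20. The 12 were picked by these same values. The set also differed within a gene that as a whole did not stand apart. H2bc4 has a coding exon and a distal exon of 305 bp, and for 100 counts of the 423-bp coding exon the distal exon had 93.8 to 100.1 counts in WT libraries 3 and 4, against 48.1 to 51.1 counts for KO CM, 46.6 to 52.7 for KO control and 43.8 to 54.3 for WT libraries 1 and 2. The part of library preparation in these differences was not tested.

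**Figure D4:**
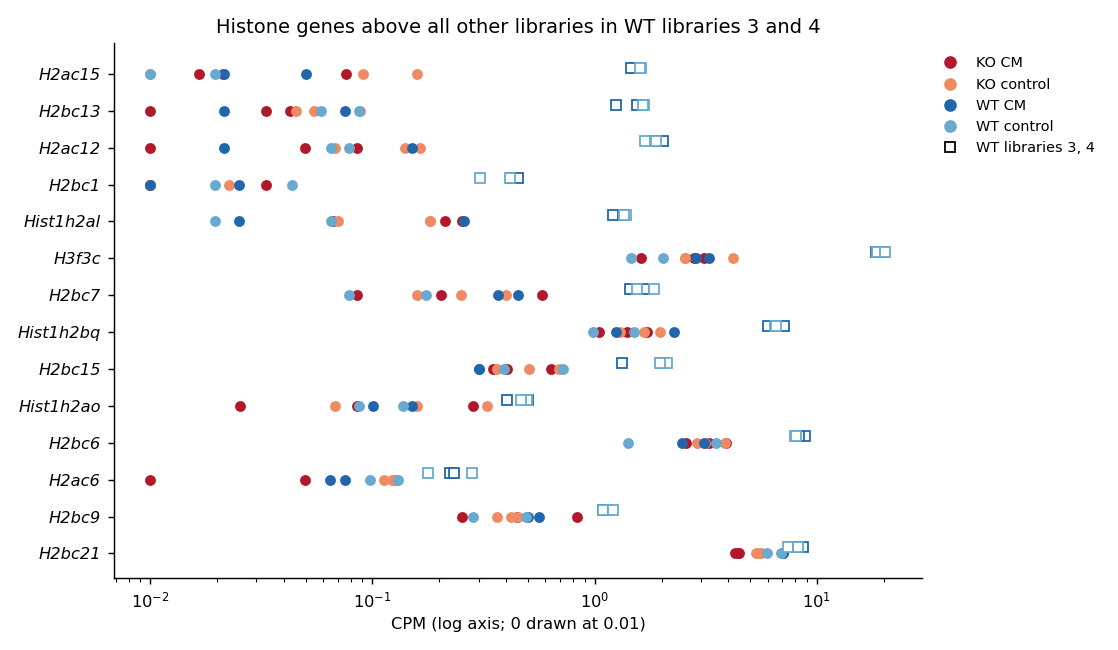
CPM on a log axis (x) in each library for the 14 histone genes (rows) in which all 4 of WT libraries 3 and 4 (squares) lie above the other 10 libraries (circles, coloured by group). H2ac15 has 1.45 CPM or more in the squares against at most 0.158 CPM in the circles, and H2bc21 has 7.40 CPM or more against at most 7.04 CPM.

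Among the H2A variants that the symbols do not match, 3 rose with CM in both genotypes. H2ax, whose phosphorylation marks DNA breaks and whose mRNA can end in the stem-loop, had 10.1, 10.1 and 12.6 CPM in KO CM against 5.27, 5.16 and 5.55 CPM in KO control, and 6.74, 8.04, 8.47 and 8.69 CPM in WT CM against 3.91, 4.56, 5.42 and 5.53 CPM in WT control. Its log2 fold change was 1.04 ± 0.14 in KO and 0.71 ± 0.12 in WT (adjusted p = 2.8e-05 and 0.00023). Macroh2a1 (older symbol H2afy), a variant with a large non-histone domain, had 275, 261 and 249 CPM in KO CM against 207, 206 and 197 CPM in KO control, and 245, 261, 239 and 252 CPM in WT CM against 183, 189, 193 and 176 CPM in WT control (0.36 ± 0.06 and 0.43 ± 0.05). Macroh2a2, its paralog, averaged 2.51 ± 0.394 CPM in KO CM against 1.06 ± 0.273 CPM in KO control (SD, n = 3 each), and 3.17 ± 0.580 CPM in WT CM against 1.34 ± 0.268 CPM in WT control (n = 4 each; log2 fold changes 1.25 ± 0.23 and 1.23 ± 0.19). No CM library of these 3 genes overlapped a control library of its genotype.

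Cenpa, the H3 variant of centromeres, averaged 99.0 ± 12.6 CPM in KO CM against 63.8 ± 4.49 CPM in KO control (SD, n = 3 each) and 81.6 ± 8.27 CPM in WT CM against 52.3 ± 4.61 CPM in WT control (n = 4 each; log2 fold changes 0.63 ± 0.10 and 0.64 ± 0.09). H2az1, the main H2A.Z gene, was not called with CM (adjusted p = 0.21 in KO and 0.99 in WT). It had 290, 289 and 275 CPM in KO control against 223, 260, 227 and 221 CPM in WT control (0.29 ± 0.07, adjusted p = 0.021). That call was lost without WT control library 3 or 4 or any KO control library (adjusted p 0.051 to 0.089), with only the compared groups in the fit (adjusted p = 0.060), with the replicate block (adjusted p = 0.13) and with the most-counted exon of each gene (adjusted p = 0.20). H2az2 and H2aj were not called in any of the 4 comparisons.

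Macroh2a1 has 2 mutually exclusive exons, of 100 bp (chr13:56089758-56089857) and 91 bp (chr13:56088252-56088342, both minus strand, GENCODE). The 100-bp exon took 57.4, 53.9 and 55.5% of their counts per base in KO CM against 37.8, 35.1 and 36.9% in KO control, and 55.4, 57.9, 60.3 and 60.1% in WT CM against 41.3, 39.8, 45.9 and 43.3% in WT control. The share was higher in every CM library than in every control library. The difference was 19.0 percentage points in KO (55.6 ± 1.78% in CM against 36.6 ± 1.39% in control, SD, n = 3 each, exact two-sided permutation p = 0.10, the smallest this design allows; 0.13 after adjustment over the 4 comparisons) and 15.9 points in WT (58.4 ± 2.33% in CM against 42.6 ± 2.63% in control, n = 4 each, exact permutation p = 0.029, also the smallest possible; 0.11 after adjustment). Between genotypes the KO minus WT difference was -5.98 points in control medium (exact permutation p = 0.057, the smallest possible) and -2.83 points in CM (exact permutation p = 0.17). In each medium WT libraries 3 and 4, which have no KO counterpart, held the higher WT shares. WT libraries 1 and 2 had 41.3 and 39.8% in control medium and 55.4 and 57.9% in CM. The exon counts were 339 to 1040 for the 100-bp exon and 380 to 635 for the 91-bp exon.

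**Figure D5:**
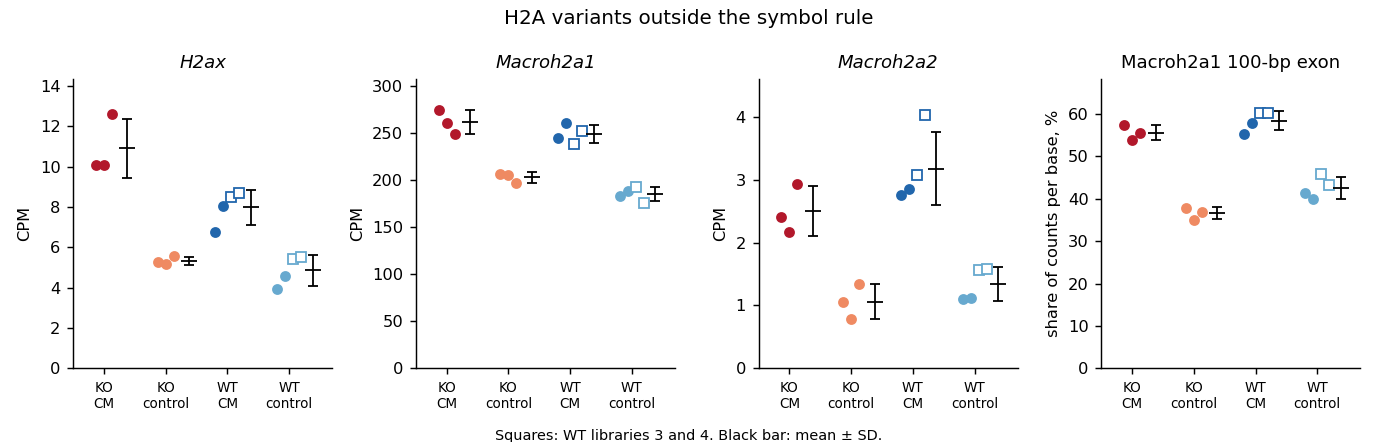
CPM of H2ax, Macroh2a1 and Macroh2a2 and the share of the 100-bp exon in the counts per base of the mutually exclusive Macroh2a1 exons (y axes, share in percent) in each library of the 4 groups, with mean and SD as black bars and WT libraries 3 and 4 as squares. In all 4 panels the CM libraries lie above the control libraries of the same genotype, and the exon share is 53.9 to 60.3% in CM against 35.1 to 45.9% in control.

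The genes that make, process and deposit histones were called in both directions with CM. Over all tested genes CM raised 20.0% and lowered 18.2% in KO and raised 19.3% and lowered 18.0% in WT, and the counts below are to be set against those shares. For KO over WT the shares were 3.10% higher and 1.49% lower in CM, and 2.82% and 2.50% in control medium. Of 20 tested genes of histone transcription and mRNA processing, CM raised 4 and lowered 2 in KO (median log2 fold change 0.07) and raised 6 and lowered 2 in WT (0.07). With WT libraries 1 and 2 alone 2 were raised and 1 lowered in WT, and with the replicate block 6 and 4. Zfp473, whose human counterpart takes part in the U7-dependent processing of histone mRNA, averaged 2.57 CPM in KO CM against 0.788 CPM in KO control and 2.21 CPM in WT CM against 0.818 CPM in WT control (log2 fold changes 1.70 ± 0.28 and 1.46 ± 0.24, adjusted p = 0.00016 and 0.00014). Ncbp1, the large subunit of the cap-binding complex, rose by 0.44 ± 0.07 and 0.23 ± 0.06, and Cstf2, a cleavage factor, fell by 0.24 ± 0.09 and 0.30 ± 0.08. Slbp and Npat, the stem-loop binding protein and the coactivator of histone transcription, were chosen here after their values were seen. Slbp had a log2 fold change of -0.09 ± 0.11 in KO and -0.03 ± 0.09 in WT, and Npat 0.04 ± 0.10 and -0.02 ± 0.08. Between genotypes edgeR called 0 genes of the list, with 2 higher and 4 lower at an unadjusted p below 0.05 in control medium and 1 higher and 2 lower in CM; DESeq2 called 1 higher and 2 lower in control medium and 0 higher and 1 lower in CM.

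Of 31 histone chaperones, read against the same shares, CM raised 6 and lowered 3 in KO (median 0.01) and raised 5 and lowered 3 in WT (-0.02; 7 and 5 with the replicate block). Asf1b, an H3-H4 chaperone of S phase, rose by 1.15 ± 0.13 in KO and 0.72 ± 0.11 in WT, and Hjurp, which deposits CENP-A, by 0.51 ± 0.07 and 0.38 ± 0.06. Daxx, an H3.3 chaperone, fell by 0.52 ± 0.09 and 0.54 ± 0.08, and Rbbp7, which binds H4, fell by 0.20 ± 0.06 and 0.32 ± 0.05. Between genotypes 4 chaperones were higher in KO CM than in WT CM and 0 were lower (7 at an unadjusted p below 0.05, and 5 higher and 2 lower by DESeq2; 2 higher and 0 lower with WT libraries 1 and 2 alone), Asf1b by 0.53 ± 0.12 and Hjurp by 0.34 ± 0.07 among them, and 0 were called in control medium by edgeR (2 higher and 5 lower at an unadjusted p below 0.05, and 1 higher and 2 lower by DESeq2).

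Cell cycle genes are given beside the histone genes because replication-dependent histone mRNA is tied to S phase. Of 38 S-phase genes, CM raised 17 and lowered 4 in KO (median 0.27) and raised 12 and lowered 5 in WT (0.06). Rrm1, a ribonucleotide reductase subunit, rose by 0.72 ± 0.07 on the log2 scale in KO and 0.34 ± 0.06 in WT, and Mcm6, a replicative helicase subunit, fell by 0.48 ± 0.07 and 0.71 ± 0.06. Of 24 genes of mitosis, CM raised 24 in KO (median 1.70) and 23 in WT (1.56), with 0 lowered. Mki67, the proliferation marker, averaged 132 CPM in KO CM against 37.4 CPM in KO control and 93.5 CPM in WT CM against 29.5 CPM in WT control. Between genotypes in CM, 13 S-phase genes (median 0.30) and 19 mitosis genes (0.53) were higher in KO and 0 lower, and in control medium 1 and 14 were higher and 0 lower. Over all tested genes 3.10% were called higher and 1.49% lower in KO CM, and 2.82% and 2.50% in KO control. With WT libraries 1 and 2 alone the counts of S-phase and mitosis genes higher in KO were 14 and 18 in CM and 1 and 15 in control medium. With the replicate block they were 0 and 2 in CM and 0 and 7 in control medium. At an unadjusted p below 0.05, 0 S-phase genes and 0 mitosis genes were lower in KO CM and 1 and 0 in KO control. In the same comparison in CM, H2bc21, whose transcript model has no stem-loop, was lower in KO. A tie of this gene to S phase was not tested.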

How the data were processed

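RNA was sequenced from 14 libraries with paired reads of 150 bp, and reads were aligned to mm10 with HISAT2, per the submitters' processing notes; the counting tool, annotation, strand setting and treatment of reads that match several copies are not given in the sources used here. The authors deposited raw counts per exon: 427386 entries for 25239 symbols, of which 196941 repeat an exon of the same gene (48.6% of the counts). These repeats were dropped and the other exons summed per gene, so a read over overlapping exons counts more than once. No entry lacked a gene (0), and 0 columns were unmapped. Genes were tested with edgeR 4.0.16 (quasi-likelihood, TMM, filterByExpr with a minimum count of 10 and a minimum total of 15) in R 4.3.3, in 1 fit of the 4 groups over 14 libraries, with Benjamini-Hochberg adjustment over 13311 genes and a threshold of 0.05; the method was tested on simulated data. CPM values are counts scaled to the TMM-adjusted library total, and CPM per kb divides by summed exon length. Fold intervals are 95% and cover the fitted spread; floors of 3 counts cover counting error only. Totals were 40249866 to 85774436 counts per library. Alternatives were DESeq2 1.42.0, limma 3.58.1 voom, other scalings and filters, the most-counted exon, leaving out each library, the replicate number as a block, and subsets of the WT libraries. Same-numbered WT libraries of CM and control deviated together from their group means (correlations 0.33, 0.35, 0.47 and 0.46). WT libraries 3 and 4 stood apart in both media, and libraries of different numbers were not correlated. A pairing by number can therefore not be told from that split. In the other comparisons the correlations were -0.104 to 0.117. Values in every library are given for each tested variant gene and, in each clustered class, for up to 4 genes with the smallest p in any comparison and the most abundant one; of the other lists, the 4 genes with the smallest p could be named. Members and gene lists were chosen with earlier results of these data known. Sequences are from RefSeq (GRCm38.p6) and GENCODE.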

Additional observations from a re-analysis of the deposited data

Results flagged for a closer look

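Of 144 groups of 4 libraries checked, 6 held a library far from the other 3, where chance gives about 1 in 20. H2az1 had 259.7 CPM in WT control library 2 and 221 to 227 CPM in the other WT control libraries. H2aj had 19.3 CPM in WT control library 1 and 26.2 to 27.2 CPM in the others. Adgre1, a macrophage marker, had 3614 CPM in WT control library 1 and 3278 to 3328 CPM in the others, and Itgam, another, had 1266 CPM there and 1190 to 1199 CPM in the others. Afp, a hepatoma marker, had 2.53 CPM in WT CM library 4 and 2.00 to 2.07 CPM in the other WT CM libraries. Elane, a neutrophil marker, had 0.0587 CPM (3 counts) in WT control library 2 and 0 in the others.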

How the results depend on the processing

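H3c13 and H3c14 (CM in both genotypes) and H1f0 (CM in KO) kept their direction and call in 27 of 27 alternatives, and H4c3, Hist1h4m and Hist1h4n (CM in KO) in 26 of 26. H2bc21 (KO in CM) kept it in 26 of 27, with an adjusted p of 0.097 under the replicate block, and H1f2 (CM in KO) in 23 of 27. Of the single-gene results, 568 kept their side of the threshold, 23 lost it and 0 reversed. Counts of called members that moved by over 1.5 times, or whose range without 1 library did not stay at 1 value, were as follows, and the cause was not tested. For CM in WT, 2 were higher, and 4 with the replicate block; 0 were lower, and 3 with library totals alone, 1 at a mean of 1 CPM or more, 1 by DESeq2, 2 by limma-voom, 2 with the replicate block, 1 with WT libraries 3 and 4 as a term, 1 with WT libraries 1 and 2 alone, 2 with WT libraries 3 and 4 alone and 0 to 2 leaving out 1 library. For CM in KO, 2 were higher, and 4 with WT libraries 3 and 4 alone; 5 were lower, and 3 at a mean of 1 CPM or more and 4 to 6 leaving out 1 library. For KO in control medium, 0 were higher, and 2 with library totals alone, 2 by DESeq2, 6 by limma-voom, 1 with the most-counted exon, 2 with WT libraries 3 and 4 as a term, 1 with WT libraries 1 and 2 alone, 6 with WT libraries 3 and 4 alone and 0 to 1 leaving out 1 library; 0 were lower, and 1 by DESeq2, 5 by limma-voom, 1 with WT libraries 3 and 4 as a term, 13 with WT libraries 3 and 4 alone and 0 to 2 leaving out 1 library. For KO in CM, 0 were higher, and 3 with WT libraries 3 and 4 alone; 1 was lower, and 3 by DESeq2, 2 by limma-voom, 0 with the replicate block, 18 with WT libraries 3 and 4 alone and 1 to 2 leaving out 1 library. The use of WT libraries 3 and 4 alone was chosen after seeing the data. Counts over all genes moved too. For KO in control medium they were 708 higher and 793 lower by DESeq2, 2436 and 2321 by limma-voom and 2623 and 2623 with WT libraries 3 and 4 alone. For KO in CM they were 726 and 493, 1041 and 753, and 2406 and 2385 in the same order. Library totals alone shifted the median of all genes by -0.12 for CM in KO and -0.09 for CM in WT on the log2 scale. Same-numbered libraries deviated together only in WT, where a pairing by number cannot be told from the split of libraries 3 and 4. Between genotypes the block lowered the counts over all genes, for KO in control medium to 68 higher and 19 lower (375 and 333 without it). In KO in CM the block left 0 S-phase and 2 mitosis genes higher. Many clustered genes had under 1 CPM, where only large differences could be detected at this depth.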
